A study of Drosophila melanogaster with 6 samples.

Results

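The genes of the mitochondrial respiratory chain and of the ATP synthase were followed in the bodies of male Drosophila melanogaster that had courted for 5 min and of males that had not. Members were chosen by symbol alone: a probe set (the group of short oligonucleotides that stands for 1 transcript on the array) was taken when its platform annotation, brought up to date by Entrez ID, named 1 gene whose symbol starts with ND-, SdhA to SdhD, UQCR-, COX and a digit, or ATPsyn. Of 90 such symbols in the gene table, 66 had a probe set of their own. They are measured by 68 of the 14010 rows of the value table, since ATPsynC and ND-MNLL have 2 probe sets each. The other 24 genes are not analysed here, and among them are SdhA, ND-24, UQCR-C1 and UQCR-C2 as well as COX1, COX2 and COX3, which the mitochondrial genome encodes. All members measured are thus nuclear genes. A subset of 17 genes carries the symbol of another gene followed by L (for like) and is called L-type, and the remaining 49 genes (51 probe sets) are called members without an L suffix.

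The samples were 3 pools of exposed and 3 pools of unexposed Canton-S males, a wild-type laboratory strain, each of about 12 virgin flies aged 4 days, with total RNA of each pool on 1 Affymetrix Drosophila Genome array of version 1. Exposed males had courted a virgin female robustly for 5 min without mating, and unexposed males were handled in the same way with no female. No choice by behaviour is described for unexposed males, so exposure and the choice of males cannot be told apart. Pools of the 2 treatments were collected in parallel, and arrays with the same replicate number form pairs 1 to 3. The labels name the male body as the source, so no tissue was measured alone, and in such bulk samples fewer cells of a type and less RNA per cell cannot be told apart.

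Complex I (NADH dehydrogenase, symbols ND-) and complex II (succinate dehydrogenase, SdhA to SdhD) feed electrons from food oxidation into the chain, complex III (UQCR-) passes them to cytochrome c and complex IV (cytochrome c oxidase, COX) to oxygen. The ATP synthase (complex V, ATPsyn) uses the proton gradient that complexes I, III and IV build up. Most subunits come from nuclear genes that all tissues use, with high demand in flight muscle. Drosophila also has duplicated copies of many of these genes, and such copies are known for expression in the testis, where the mitochondria of each spermatid fuse and then run along the sperm tail. The L-type genes are copies of this kind by name. Whole-body arrays cannot show whether a given copy is limited to the testis, and that was not tested here.

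The study kept probe sets that reached a signal of 100 on 3 or more arrays. Every member met this filter, so the 68 member probe sets are among the 8251 that were tested. Complex I is represented by 27 probe sets without an L suffix and 5 L-type ones, complex II by 3 and 3, complex III by 3 and 1, complex IV by 7 and 4 and complex V by 11 and 4. Signals are on the linear intensity scale of the deposited table. They are compared between arrays for the same probe set, since probes differ in brightness and a signal does not order transcripts by amount. As a gauge of background, 23 control probe sets for bacterial, yeast and mouse sequences had median signals of 80.1 for exposed 1, 81.0 for unexposed 1 and 22.9 to 31.3 elsewhere. Of the 68 member probe sets, 64 lay above this median on all 6 arrays. The exceptions were SdhAL and ATPsynepsilonL (4 arrays each), COX6AL2 (5 arrays) and the dim probe set of ATPsynC (5 arrays).

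The replicate 1 arrays stood apart from the other 4 arrays. The 3′ to 5′ signal ratio of the actin control was 17.8 for exposed 1 and 5.79 for unexposed 1, compared with 2.19 to 2.36 elsewhere, and that of the GAPDH control was 5.8 and 1.93 compared with 1.30 to 1.52. Between 49 and 82 probe sets were listed at 0 on the replicate 2 and 3 arrays, 364 on exposed 1 and 195 on unexposed 1. Results are therefore given pair by pair and also without replicate 1. Arrays were labelled at 1 of 2 core facilities, and which array went where is not given in the sources used here.

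**Figure D1:**
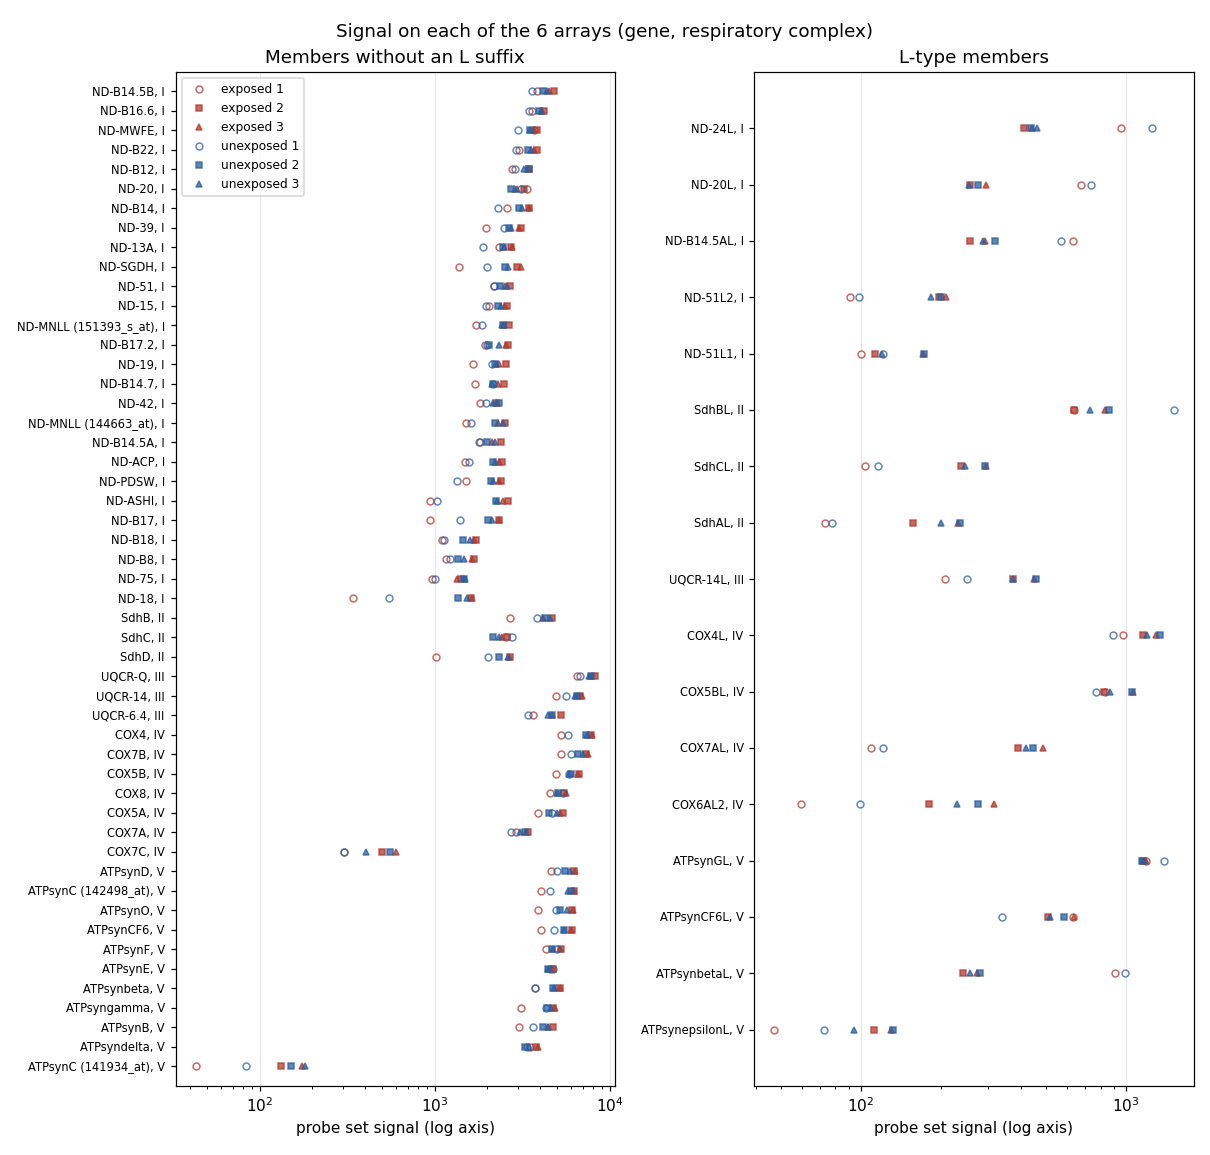
Signal of each member probe set (rows, with its complex) on the 6 arrays, on a log axis in the units of the deposited table; red marks exposed and blue unexposed pools, and open circles are the replicate 1 arrays. Without an L suffix, most rows have the open circles at the left, whereas L-type rows such as ATPsynbetaL and ND-24L have them at the right and COX7AL and COX6AL2 at the left.

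No member passed the test for a difference between exposed and unexposed males. In limma, with replicates as blocks and Benjamini-Hochberg adjustment, 0 of 68 members passed at an adjusted p under 0.05 (0% of all 8251 probe sets did), and the smallest adjusted p of a member was 0.905. At an unadjusted p under 0.05, 0 members were higher and 0 lower, where 0.376% of all probe sets were higher and 2.12% were lower. A paired test written anew in the style of the study's Cyber-T test also called 0 members at an unadjusted p under 0.05. It was run on the deposited values only, whereas the study compared 3 summaries. The median log2 ratio of exposed over unexposed signal was 0.03 over the 51 probe sets without an L suffix and -0.07 over the 17 L-type probe sets, beside -0.09 over all probe sets tested. Leaving out 1 replicate at a time gave a first median of 0.13, -0.02 and 0.00 and a second of -0.03, 0.04 and -0.17 without replicates 1 to 3. Standard errors of single members ran from 0.12 to 0.30 on the log2 scale. These and all values after ± are limma's moderated standard errors, which also draw on the variance of all 8251 probe sets. They are thus not the scatter of a gene's own 3 pairs.

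Behind these small means, the pairs did not run alike. Without an L suffix, 37 of 51 probe sets were lower in the exposed pool of pair 1 (74.4% of all probe sets were), 46 were higher in pair 2 (36.8% of all) and 43 were higher in pair 3 (59.9% of all). The median log2 ratios of pairs 1 to 3 were -0.11, 0.17 and 0.08, beside -0.21, -0.08 and 0.05 over all probe sets. A lower signal in pair 1 with a higher one in both other pairs was seen in 27 of the 51, against 15.2% of all probe sets. Signals were higher in exposed pools of all 3 pairs for 13 of the 51 (6.23% of all) and lower in all 3 for ND-75 and the dim ATPsynC probe set (18.4% of all). Between replicates 2 and 3 alone, both exposed arrays lay above both unexposed arrays for 40 of the 51, or 78.4%, against 16.2% of all probe sets. Among the 1003 probe sets with a mean signal of at least 1000, a stratum added after the data were seen because most of these members are bright, that share was 26.5%, and 48.4% were higher in pair 2.

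The direction in pair 1 turned with the scaling of the arrays, and the other directions did not. After quantile normalization 23 of the 51 were higher and 27 lower in pair 1, and after centring each array on its median 39 were higher and 12 lower. In pair 2 the number higher was 48 after quantile normalization (51.8% of all probe sets) and 49 after centring (54.7% of all), and in pair 3 it was 42 (51.5% of all) and 33 (48.5% of all). Of the bright stratum, 54.1% were higher in pair 2 after quantile normalization and 70.7% after centring, so the members lay nearer to it after centring than in the signals as deposited. Both exposed arrays of replicates 2 and 3 stayed above both unexposed ones for 38 probe sets after quantile normalization (18.9% of all) and for 31 after centring (18.2% of all). Centring moved the median of all probe sets from -0.09 to 0.02 and that of these members from 0.03 to 0.14, and results are best read relative to the median of all probe sets.

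**Figure D2:**
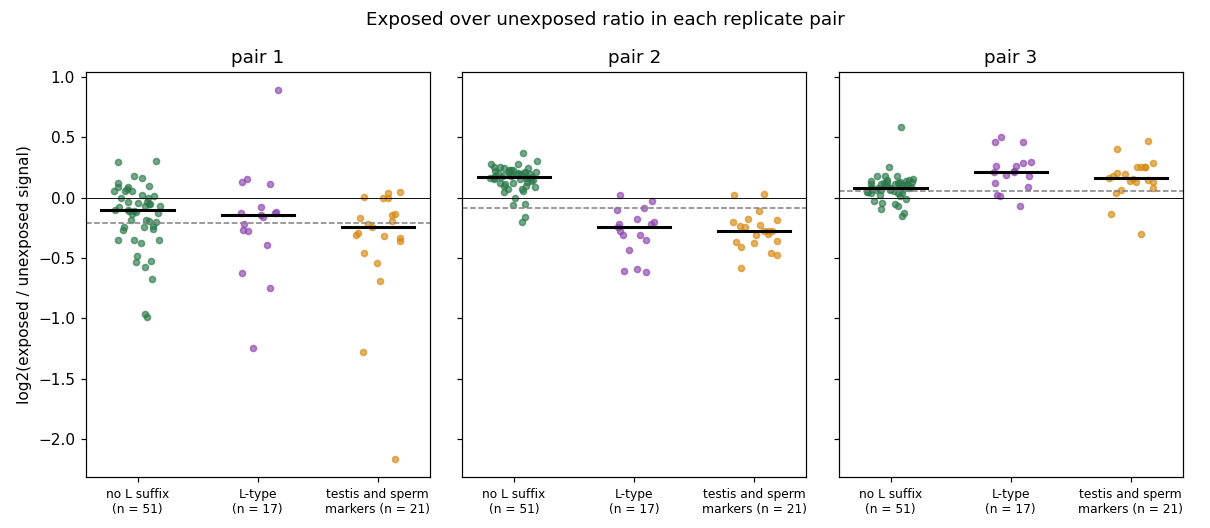
Log2 ratio of exposed over unexposed signal in pairs 1 to 3 for the 51 probe sets without an L suffix, the 17 L-type probe sets and 21 testis and sperm marker probe sets; points are probe sets, black bars their medians and the dashed line the median of all 8251 probe sets tested. In pair 2 the medians are 0.17, -0.24 and -0.28, and in pair 3 they are 0.08, 0.21 and 0.16.

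Ratios in complex I were small and mostly positive. Of its 27 probe sets without an L suffix, 10 were higher in the exposed pool of pair 1, 24 in pair 2 and 22 in pair 3, with a median log2 ratio of 0.06. ND-13A, an accessory subunit, had the largest mean ratio of all members without an L suffix. Its signals, in the order of replicates 1 to 3, were 2314, 2745 and 2752 for exposed and 1885, 2464 and 2503 for unexposed males. Each exposed pool was above its partner and the groups overlapped. The mean log2 ratio was 0.20 ± 0.12 (moderated standard error, n = 3 pairs, adjusted p = 0.905 from limma).

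ND-MWFE, the fly counterpart of a small membrane subunit of mammalian complex I, gave 3692, 3851 and 3674 in exposed pools and 3002, 3492 and 3487 in unexposed pools. It was 1 of 2 members whose groups did not overlap (2.01% of all probe sets), and its mean log2 ratio was 0.17 ± 0.13 (adjusted p = 0.905 from limma). ND-B14, an accessory subunit like ND-PDSW, gave 2603, 3471 and 3451 against 2307, 3031 and 3165, so that the replicate 1 arrays were the lowest of both groups. ND-PDSW gave 1501, 2399 and 2338 against 1343, 2091 and 2159, with the same low replicate 1 arrays. Their mean log2 ratios were 0.17 ± 0.12 and 0.16 ± 0.12, with adjusted p-values of 0.905 each from limma.

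The remaining complex I members that stand out by signal varied less with treatment than with replicate. ND-B14.5B had 3856, 4785 and 4510 in exposed pools and 3611, 4134 and 4398 in unexposed pools. ND-B16.6 had 3600, 4222 and 4117 against 3435, 3953 and 4066. ND-B22 had 3047, 3820 and 3679 against 2928, 3407 and 3564. All 3 were higher in each exposed pool than in its partner, by log2 ratios of at most 0.21, and in each group replicate 1 was the lowest array.

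Among the redox-active core subunits of complex I, ND-75, which carries iron-sulfur clusters, had ratios below 0, unlike most of the complex. Its signals were 963, 1410 and 1343 in exposed pools and 1002, 1467 and 1492 in unexposed pools, lower in all 3 pairs. The mean log2 ratio was -0.09 ± 0.12 (adjusted p = 0.919 from limma), and the median of all probe sets tested was also -0.09. After quantile normalization the mean of ND-75 was -0.05, and after median centring it was 0.02. ND-51, the subunit that binds NADH, gave -0.01, 0.21 and -0.03 as its log2 ratios by pair, and ND-20, an iron-sulfur subunit next to the quinone site, had 0.12, 0.26 and 0.04. ND-20 was thus higher in every exposed pool, and the groups overlapped. The 2 probe sets of ND-MNLL gave ratios of -0.11, 0.19 and -0.10 and -0.11, 0.11 and -0.05, which had the same signs in each pair.

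The 3 complex II members without an L suffix were all lower in pair 1 and higher in pair 2. SdhB, the iron-sulfur subunit, had signals of 2676, 4655 and 4159 in exposed pools and 3844, 4260 and 4540 in unexposed pools. SdhD, a membrane anchor, had 1019, 2684 and 2656 against 2020, 2331 and 2639. The exposed 1 array was the lowest of the 6 for both genes, and in replicates 2 and 3 their groups lay close together. SdhC, the other anchor, had 2569, 2600 and 2415 against 2765, 2149 and 2336, with no low replicate 1 arrays. By pair, the log2 ratios were -0.52, 0.13 and -0.13 for SdhB, -0.11, 0.28 and 0.05 for SdhC and -0.99, 0.20 and 0.01 for SdhD, and the means were -0.17 ± 0.17, 0.07 ± 0.14 and -0.26 ± 0.27.

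In complex III, UQCR-Q had 6482, 8205 and 7822 in exposed pools and 6802, 7810 and 7604 in unexposed pools. UQCR-14 had 4917, 6784 and 6921 against 5601, 6462 and 6373, and UQCR-6.4 had 3639, 5242 and 4702 against 3421, 4680 and 4454. All 3, small subunits with no redox centre, had their lowest value on a replicate 1 array, and both exposed pools of replicates 2 and 3 were above both unexposed pools. Their mean log2 ratios were 0.01 ± 0.12, 0.00 ± 0.13 and 0.11 ± 0.12.

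Complex IV gave the same course in its nuclear subunits, which surround a catalytic core that the mitochondrial genome encodes and that is not analysed here. COX4 had 5274, 7812 and 7919 in exposed pools and 5775, 7349 and 7457 in unexposed pools. COX7B had 5276, 7338 and 7466 against 6025, 6565 and 6999, and COX5B had 4933, 6671 and 6614 against 5849, 6006 and 5831. COX8 had 4539, 5482 and 5644 against 5373, 5052 and 4985. In each of these 4 genes exposed 1 was the lowest array, and exposed 2 and 3 were above unexposed 2 and 3.

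COX7C was the exception in complex IV and is named here after its values were seen. Its signals were 302, 497 and 603 in exposed pools and 303, 556 and 402 in unexposed pools, giving log2 ratios of 0.00, -0.16 and 0.59. Exposed 3 and unexposed 2 were the highest arrays of their groups, an order that most L-type genes shared. Over the 7 complex IV probe sets without an L suffix, 1 was higher in pair 1, 6 in pair 2 and 7 in pair 3.

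In the ATP synthase, 2 of 11 probe sets without an L suffix were higher in pair 1, 10 in pair 2 and 9 in pair 3. ATPsyndelta, which encodes a subunit of the rotating central stalk, had 3484, 3785 and 3912 in exposed pools and 3366, 3270 and 3447 in unexposed pools. Every exposed pool lay above every unexposed pool, with a mean log2 ratio of 0.15 ± 0.12 (adjusted p = 0.905 from limma). ATPsynbeta, the catalytic subunit, had 3761, 5219 and 5195 against 3734, 4748 and 4819, which was low in both replicate 1 pools and slightly higher in exposed pools otherwise.

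The peripheral stalk genes ATPsynD, ATPsynO and ATPsynCF6 were lower in pair 1 and higher in pairs 2 and 3. ATPsynD had 4631, 6275 and 6316 in exposed pools and 5007, 5549 and 5906 in unexposed pools. ATPsynO had 3887, 6080 and 6155 against 4960, 5224 and 5705, and ATPsynCF6 had 4069, 6091 and 5990 against 4792, 5450 and 5452. In all 3 genes exposed 1 was the lowest array of the 6. ATPsynB, a further gene of this stalk named after its values were seen, had log2 ratios of -0.26, 0.20 and -0.01. It was thus not higher in pair 3.

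ATPsynC, the subunit of the proton-driven ring, is covered by 2 probe sets that disagreed. The bright one had 4026, 6259 and 6237 in exposed pools and 4575, 6017 and 5755 in unexposed pools, with a mean log2 ratio of 0.00 ± 0.13. The dim one had 42.9, 132 and 174 against 83.9, 151 and 182, with -0.41 ± 0.22, and its exposed 1 signal was below the control median of that array (80.1). Its unadjusted p of 0.123 was the lowest among the 68 members in limma, with an adjusted p of 0.905.

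The L-type genes had mostly lower signals in the exposed pool of pair 2 and higher ones in pair 3. Of 17, 13 were lower in the exposed pool of pair 1 (74.4% of all probe sets), 16 were lower in pair 2 (63.2% of all) and 16 were higher in pair 3 (59.9% of all). Lower in pair 2 and higher in pair 3 together was seen in 15 of the 17, against 38.4% of all probe sets. The exceptions were ATPsynGL, at 0.02 in pair 2, and ND-24L, at -0.07 in pair 3. Median log2 ratios in pairs 1 to 3 were -0.15, -0.24 and 0.21. In signals, exposed 3 was above exposed 2 and unexposed 2 above unexposed 3 in these 15 genes, so the treatments overlapped. ND-24L and ATPsynGL, whose signals were higher on unexposed 3 than on unexposed 2, differed from this order. Over all probe sets, nothing in the signals ties the replicate 2 arrays of the treatments to each other, nor those of replicate 3, beyond their number. None was higher in all 3 pairs (6.23% of all probe sets), and ND-24L was lower in all 3 (18.4% of all). For 0 of the 17 did both exposed arrays of replicates 2 and 3 lie above both unexposed ones (16.2% of all). The 16 genes lower in pair 2 could not show this order. It was seen in 3 of the 17 after quantile normalization (18.9% of all) and in 2 after centring (18.2% of all). After quantile normalization 13 were lower in pair 2 and 15 higher in pair 3, and after median centring 13 and 14, with 12 showing both under either scaling. Both signs were seen in 2183 of all 8251 probe sets after quantile normalization and in 2033 after centring. In pair 1 the direction did not hold, with 8 of the 17 higher after quantile normalization and 11 after centring, and the median of the mean ratios, -0.07, became 0.01 and 0.04. L-type genes and members without an L suffix were not tested against each other, because probe sets read from the same 6 arrays are not independent replicates.

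Among the complex I copies, ND-20L had signals of 676, 258 and 295 in exposed pools and 739, 277 and 255 in unexposed pools. ND-B14.5AL had 629, 258 and 292 against 567, 319.6 and 289, and ND-24L had 958, 411 and 439.6 against 1254, 437 and 461. In these 3 genes both replicate 1 arrays were far above the other 4 arrays. ND-51L1 had 99.8, 113 and 171 against 121, 173 and 120.4, with exposed 3 and unexposed 2 the highest arrays. ND-51L2 had 90.6, 196 and 208 against 98.6, 200.2 and 184, with both replicate 1 arrays lowest. Their groups all overlapped, and the mean log2 ratios of the 5 copies lay between -0.18 and 0.01.

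Of the complex II copies, SdhBL had the lowest mean ratio of all 68 probe sets, -0.50 ± 0.30 (adjusted p = 0.905 from limma). Its signals were 637, 637 and 828 in exposed pools and 1508, 862 and 727 in unexposed pools, so unexposed 1 stood far above the other 5 arrays, and without replicate 1 the mean was -0.13. SdhCL had 103, 238 and 296 against 116, 294 and 247, and SdhAL had 73.4, 157 and 232 against 77.6, 237 and 200.0. In both of these genes exposed 3 and unexposed 2 were the highest arrays of their groups. The replicate 1 signals of SdhAL lay below the control medians of those arrays. UQCR-14L, the complex III copy, had 208, 376 and 449 against 251, 456 and 375, again with exposed 3 and unexposed 2 highest.

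The complex IV copies gave the same order of arrays. COX4L had 976, 1153 and 1294 in exposed pools and 894, 1340 and 1194 in unexposed pools. COX5BL had 832, 827 and 1061 against 772, 1053 and 869.5, and COX7AL had 109, 392 and 487 against 121, 444 and 419. COX6AL2 had 59.2, 180.3 and 317 against 99.2, 276 and 231. In all 4 copies exposed 3 was the highest exposed array and unexposed 2 the highest unexposed array. COX6AL2 had log2 ratios of -0.75, -0.62 and 0.46 with a mean of -0.30 ± 0.28, and its exposed 1 signal was below the control median of that array.

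In complex V, ATPsynbetaL had 908, 242 and 274 in exposed pools and 990.2, 281 and 258 in unexposed pools, high on both replicate 1 arrays. ATPsynepsilonL had 47.1, 112 and 129.8 against 72.6, 132 and 94.3, with both replicate 1 signals below the control medians. ATPsynGL had 1192, 1158 and 1187 against 1389, 1145 and 1168, nearly level on 5 arrays with unexposed 1 above them. ATPsynCF6L had 630.2, 507 and 635 against 341, 585 and 518, with unexposed 1 below the other 5 arrays. Its mean log2 ratio of 0.33 ± 0.24 was the highest of the 68 and was 0.05 without replicate 1.

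Markers of the testis and of sperm had the same signs by pair as the L-type genes. Of 32 markers listed, 25 genes (27 probe sets) were measured and 21 probe sets passed the filter. Of these 21, 19 were lower in pair 2 (63.2% of all probe sets), 19 were higher in pair 3 (59.9% of all) and 19 were both (38.4% of all). The medians of pairs 1 to 3 were -0.24, -0.28 and 0.16. After median centring 17 were both, beside 2033 of all 8251 probe sets, and the marker median of pair 1 was 0.03. The tubulin gene betaTub85D, used in the male germ line, had 3249, 2043 and 2615 in exposed pools and 4162, 2833 and 2391 in unexposed pools. The sperm tail gene dj had 3526, 2071 and 2621 against 3871, 2512 and 2367. Unexposed 2 was above unexposed 3 and exposed 3 above exposed 2 in both, as in most L-type genes. The summed signal of the 27 marker probe sets ran from 40530 to 47050 in exposed pools and from 42590 to 54150 in unexposed pools. Markers of flight muscle (10 tested) had medians of 0.04, -0.06 and 0.06. The 7 accessory gland markers, from another male tissue, had a median of -0.04 in pair 2 and 0.10 in pair 3, and 5 of the 7 were lower in pair 2 and higher in pair 3, the signs of the L-type genes. Of the 10 flight muscle markers 3 (30%) had both signs, below the 38.4% of all probe sets. The 5 photoreceptor markers had medians of -0.08 in pair 2 and -0.14 in pair 3. The part of the testis or accessory gland share of each pool in the L-type ratios was not tested.

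Set beside the gene it is named after, each copy can be read within the same arrays. A partner was measured for 14 of the 17 copies, with levy (the COX6A gene) as the partner of COX6AL2 and sun (the epsilon subunit gene) as that of ATPsynepsilonL, and ND-51 serving 2 copies. In pair 2 the ratio of the copy was below that of its partner in 14 of 14 cases, with a median difference of -0.40 on the log2 scale. In the signals as deposited, the copy was lower and the partner higher in the exposed pool in all 14. In that pair 16 of 17 L-type probe sets were lower and 46 of 51 others higher, so most of this follows. These signs depend on the scaling of the arrays. After quantile normalization, and likewise after centring, 4 of the 17 L-type probe sets were higher in pair 2. All cases were read from the same pair of arrays. In pair 3 the copy was above its partner in 13 of 14, with a median difference of 0.17. In pair 1 it was below in 10 of 14, with a median difference of -0.13. The difference between copy and partner thus had opposite signs in pairs 2 and 3. A scale factor for a whole array cancels in these differences, which quantile normalization may still move. A shift that varies with brightness does not cancel. By array, median signals ran from 258 to 629 for L-type probe sets and from 2676 to 3393 for those without an L suffix. In pair 2, 36.8% of all probe sets were higher, against 48.4% of those with a mean signal of at least 1000. The part of brightness in these differences was not tested.

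The widest gap of pair 2 was between ND-51L1 at -0.61 and ND-51 at 0.21, and the narrowest between COX7AL at -0.18 and COX7A at 0.05. COX7AL lies near COX7A in the genome, with 2 protein-coding genes between them, and COX5BL lies near COX5B, with 1 between. The COX5BL ratios of 0.11, -0.35 and 0.29 and the COX5B ratios of -0.25, 0.15 and 0.18 differed in sign in pairs 1 and 2 although the genes are close neighbours. ATPsynbetaL and ATPsynbeta were the exception of pair 3, at 0.09 and 0.11. Of the partners not yet given, ND-B14.5A had log2 ratios of 0.02, 0.28 and -0.05, COX7A had 0.09, 0.05 and 0.11, levy had -0.24, 0.15 and 0.03 and sun had -0.01, 0.20 and 0.22.

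**Figure D3:**
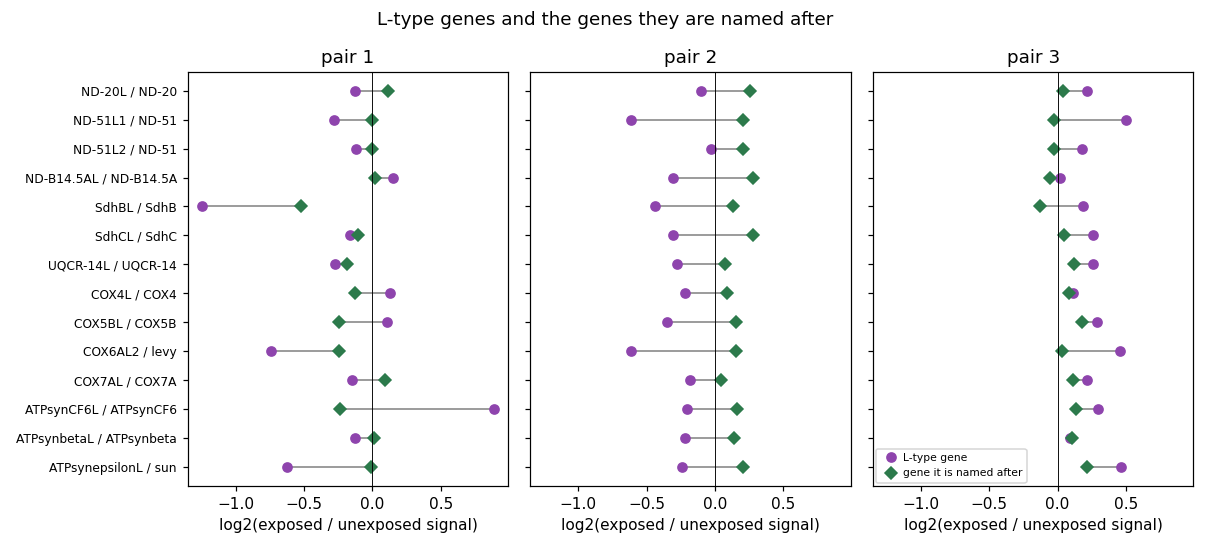
Log2 ratio of exposed over unexposed signal of 14 L-type genes (circles) and the genes they are named after (diamonds) in pairs 1 to 3; each row is 1 copy and its partner, joined by a line. In pair 2 all 14 circles are left of their diamonds, and in pair 3 13 of 14 are right of them.

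Copies also differed among themselves in how replicate 1 departed from the remaining arrays. Over the 51 probe sets without an L suffix, the mean log2 signal of the 2 replicate 1 arrays minus that of the other 4 had a median of -0.34 and was negative for 48. Both replicate 1 arrays lay below the other 4 arrays for 41 of the 51 and above for 0, where 57.2% of all probe sets were below and 28% above. ND-18, a complex I subunit, was the farthest below at -1.82, with 343, 1621 and 1640 in exposed pools and 548, 1366 and 1524 in unexposed pools. It was chosen after its values were seen. Among the 17 L-type genes the difference ran from -1.92 to 1.85, with both arrays below for 8 genes (47.1%) and above for 5 (29.4%). The share above was close to that of all probe sets. Over all probe sets tested the difference ran from -8.97 to 5.73, so a spread to both sides is not particular to these genes.

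The mean of the replicate 1 arrays was higher for 6 L-type genes: ATPsynbetaL (1.85), ND-20L (1.38), ND-24L (1.33), ND-B14.5AL (1.05), SdhBL (0.37) and ATPsynGL (0.14). For SdhBL and ATPsynGL this came mainly from unexposed 1. Those farthest below were COX7AL (-1.92), COX6AL2 (-1.68), SdhAL (-1.43), SdhCL (-1.29) and ND-51L2 (-1.06). Their replicate 1 signals were 121 or less, near or below the control medians of 80.1 and 81.0 on those arrays, which limits these differences. Copies of 1 complex could lie on both sides: in complex I, 3 genes were above and 1 below with both arrays. Testis and sperm markers also lay on both sides, 6 of 21 with both arrays below and 6 with both above. That is 28.6% each, beside 57.2% below and 28% above over all probe sets. Probe sets for female germ line and eggshell genes, which are known from egg formation, were also high on these arrays, 4 of 6 tested with both arrays above. Vm26Aa, a vitelline membrane gene chosen after its values were seen, had 1003, 229 and 224 in exposed pools and 1325, 202 and 225 in unexposed pools. Its difference of 2.39 was the largest of the 6, and that of Vm32E, 0.28, was the smallest. The labels call every sample male. The part of RNA quality and of tissue shares in these differences was not tested.

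**Figure D4:**
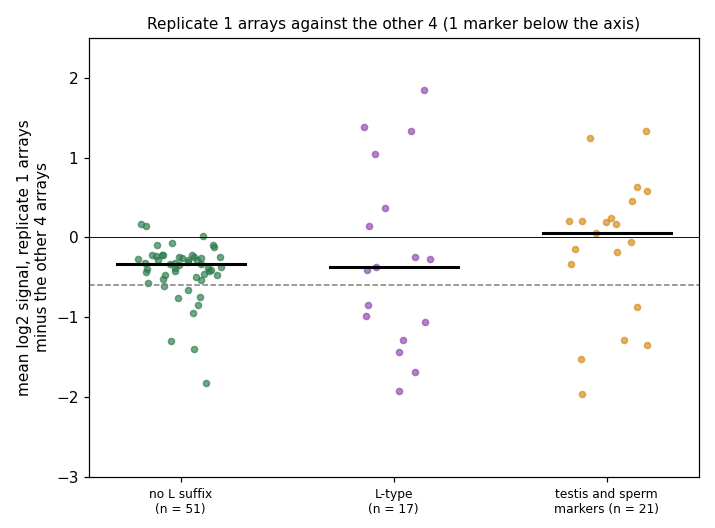
Mean log2 signal of the 2 replicate 1 arrays minus the mean of the other 4 arrays for probe sets without an L suffix, L-type probe sets and testis and sperm markers; points are probe sets, black bars medians and the dashed line the median of all probe sets tested (-0.59). Members without an L suffix lie mostly between 0 and -1, L-type genes spread from -1.92 to 1.85, and 1 marker, a probe set of bol at -7.39, lies below the axis.

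Respiratory chain genes whose symbols fall outside the rule had the signs by pair of most members without an L suffix. Of 19 such genes listed, 8 (9 probe sets, all tested) were measured. In the exposed pool 1 of 9 was higher in pair 1 (25.2% of all probe sets), 7 in pair 2 (36.8% of all) and 9 in pair 3 (59.9% of all). Of the 9, 0 passed limma's test at an unadjusted p under 0.05. RFeSP, the Rieske iron-sulfur protein of complex III, had 2744, 3980 and 3835 in exposed pools and 3433, 3335 and 3520 in unexposed pools. Cyt-c1, its neighbour in the electron path, had 1798, 4283 and 3991 against 3447, 3549 and 3793, and blw, the ATP synthase alpha subunit, had 5117, 6239 and 6360 against 5872, 6346 and 6065. Exposed 1 was the lowest array for each of these 3 genes, and the groups overlapped.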

How the data were processed

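Each of 6 pools (3 exposed, 3 unexposed) has 1 one-colour array. The values that the authors deposited are linear intensities, 1 for every probe set on every array. GCOS 1.2 appears in the submitters' processing notes, and whether the table holds that summary or one of the dChip summaries in the methods is not given in the sources used here. Gene names come from GEO's platform annotation, with current RefSeq symbols (Release 6) matched on Entrez ID: of 14010 rows, 44 are controls, 12444 have 1 gene, 327 several and 1239 none.

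Signals were raised to a floor of 1 and log2 transformed without renormalization. The treatments were then fitted in limma 3.58.1 (R 4.3.3, lmFit and eBayes) with replicates as blocks. The fit covered the 8251 of 13966 probe sets that reached 100 on 3 or more arrays, and p-values were adjusted over all of them (Benjamini-Hochberg, threshold 0.05). A Cyber-T style paired test (window of 101 probe sets, 10 prior observations) was written anew. The code was tested on simulated arrays with the same noise for every probe set and no replicate set apart. That checks the code and not how the tests behave on the present arrays. Array number limits the precision.

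The methods state parallel collection and a paired test, which is why numbers were taken as pairs. Correlations of deviations from the group mean were 0.84, 0.76 and 0.78 for arrays sharing a number. Unlike-numbered arrays of replicates 2 and 3 correlated slightly more than like-numbered ones, at 0.81 both ways. The differences between replicates 2 and 3 of each treatment correlated at -0.33. The signs given for pairs 2 and 3 depend on this numbering. These values set replicate 1 apart and give no sign that replicates 2 and 3 are matched by number.

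The members and the marker and pathway lists were chosen with earlier results of these data known, so their counts are descriptions without a test of the list. Named members are the L-type genes and their namesakes, up to 4 per complex with the highest signal, and up to 5 in each direction that moved the same way in all 3 pairs with the largest mean ratio; others are marked. Alternatives left out the block or 1 replicate, changed normalization, filter, low-signal treatment or prior, or used 1 probe set per gene. After the data were seen, a background of bright probe sets and pair counts under the other scalings were added. No sequences or coordinates are given.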

Additional observations from a re-analysis of the deposited data

How the results depend on the processing

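The counts of members past an adjusted p of 0.05, and of members higher at an unadjusted p under 0.05, were 0 in limma and under every alternative run. The count lower at an unadjusted p under 0.05 was 0 with all replicates and ranged from 0 to 2 when 1 replicate was left out: without replicate 3, SdhBL (-0.84, unadjusted p = 0.0446) and COX6AL2 (-0.68, unadjusted p = 0.0202) were lower, and limma's adjusted p was 0.705 for both. With no replicate block the medians over all members and over L-type members were 0.01 and -0.07 as in the paired fit, and 0 members passed. The median over all members was 0.01, 0.06 after quantile normalization, 0.12 after median centring and between -0.04 and 0.11 with 1 replicate left out. The mean ratio changed sign for 7 of 68 member probe sets after quantile normalization, 19 after median centring, 20 without replicate 1, 22 without replicate 2 and 16 without replicate 3, and for 0 under the other filters, low-signal treatments and variance models. Over all probe sets, the split of 31 higher and 175 lower at an unadjusted p under 0.05 became 146 and 120 after quantile normalization and 127 and 102 after median centring, 0 and 10 with no replicate block, 76 and 297 of 13966 with no filter, 37 and 281 by Cyber-T, and 128 and 173 without replicate 1, 24 and 97 without replicate 2 and 14 and 255 without replicate 3. A filter on all 6 arrays left 62 member probe sets. With 3 pairs and replicate 1 apart from the others, standard errors of 0.12 to 0.30 limit what these arrays could show. Signals near or below the control medians on the replicate 1 arrays limit SdhAL, ATPsynepsilonL, COX6AL2 and the dim ATPsynC probe set. Signals not far above those medians limit ND-51L1, ND-51L2, SdhCL and COX7AL.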

Other observations

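Mitochondrial carriers, citrate cycle enzymes and mitochondrial DNA factors were taken as a further list of 28 genes, of which 20 (22 probe sets) were measured and 21 probe sets tested. Of the 21, 5 were higher in the exposed pool of pair 1 (25.2% of all probe sets), 13 in pair 2 (36.8% of all) and 16 in pair 3 (59.9% of all). An unadjusted p under 0.05 in limma or by Cyber-T was seen for 0. The medians were -0.17, 0.06 and 0.07, beside -0.21, -0.08 and 0.05 over all probe sets. The isocitrate dehydrogenase subunits Idh3a and Idh3g, chosen after their values were seen as are the other genes of this paragraph, were low on the replicate 1 arrays. Idh3a had 685, 2807 and 2558 in exposed pools and 1216, 2605 and 2676 in unexposed pools, and Idh3g had 1423, 3283 and 3079 against 2142, 2478 and 2897. TFAM, the factor that packages mitochondrial DNA, had the opposite order, 1502, 471 and 481 against 954, 448 and 464, with both replicate 1 arrays above the other 4.

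Porin2 and Fum3, also chosen after their values were seen, are paralogs of the outer membrane channel gene porin and of fumarase and had the signs of most L-type genes in pairs 2 and 3. Porin2 had 1049, 1112 and 1314 in exposed pools and 1020, 1394 and 1094 in unexposed pools, with log2 ratios of 0.04, -0.33 and 0.27. Of the porin probe sets, the bright one had 0.04, 0.20 and 0.05 and the other had -0.27, 0.10 and -0.03. Fum3 had 629, 378 and 415 against 584, 463 and 394, with 0.11, -0.29 and 0.07. Porin2 and Fum3 were thus lower in pair 2 and higher in pair 3, while both porin probe sets were higher in pair 2 and had opposite signs in pair 3. Of the 21 probe sets tested in this list, 5 (23.8%) were lower in pair 2 and higher in pair 3, against 38.4% of all probe sets. The others with both signs were mtSSB, Mpcp2 and a probe set of ScsbetaG, so these signs are not particular to Porin2 and Fum3. No test of the difference from porin was run.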
